A study of Mus musculus with 60 samples.

Results

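The data compare both mouse cell lines labelled high for Pabpn1, WTA and D7E, with both lines labelled low, WTD and D7F. Members were taken by array title, which gave 12 cultures of 15 and 48 arrays of 60. WTA and WTD were transfected with wild-type Pabpn1, and D7E and D7F with mutant Pabpn1. Each side therefore holds 6 cultures of 2 lines, 1 line per genotype, with 3 cultures per line. The remaining 3 cultures are of IM2, the untransfected line. RNA of every culture was hybridised against a common IM2 reference on 2 array parts with different probes, in both dye orientations. The labels do not name the mutation, the tissue of origin, the promoter that drove the transfected gene or how each line was derived. Each combination of genotype and level is a single line, so level and any other property of a line cannot be told apart within a genotype. IM2 cultures entered the fits through the shared estimate of the spread between cultures and through the filter, which required 2 measured cultures in every line.

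Pabpn1 is the nuclear poly(A)-binding protein, which coats new poly(A) tails, stimulates poly(A) polymerase and helps to set tail length. Expansion of its polyalanine stretch causes oculopharyngeal muscular dystrophy (OPMD), the disease named in the labels, in which the protein forms aggregates in muscle nuclei. The comparison of high with low lines asks which transcripts follow the labelled amount of Pabpn1, whichever form of the gene was transfected.

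Values are log2 ratios of a culture over the IM2 reference, averaged over both dye orientations, and a difference is the mean of WTA and D7E minus the mean of WTD and D7F. The log base of the deposited ratios is not stated and was taken as 10, so sizes and folds hold only for that base, while signs and calls do not depend on it. Ratios were read as culture over reference because Pabpn1 was positive in all 12 transfected cultures, with a high-minus-low difference of 0.68 on the Cy3 arrays alone and 0.77 on the Cy5 arrays alone. Part II carries no such marker. For the 156 genes on both parts, the high-minus-low differences correlated with r = 0.131 across genes, which are not independent replicates, and 84 had the same sign. For the mean of the transfected lines minus IM2, r over these genes was 0.40 and 91 had the same sign. Part II signs therefore rest on the assumption that both parts were deposited the same way round. So do counts of signs, counts of line orders and list medians that pool both parts. Arrays of the high lines spread more widely than those of the low lines on part I, with a median SD over probes of 1.10 against 0.918 on the log2 scale, and about as widely on part II (0.847 against 0.890). Of the 48 arrays, 4 had many values missing or at the limits of the scale, 3 of them of high lines. The part of array spread and quality in the results was not tested beyond the refits named beside them.

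Pabpn1 itself was higher in the high lines, but the labelled levels did not separate every culture. Its log2 ratio was 2.47, 2.22 and 1.89 in the WTA cultures and 1.71, 1.45 and 1.67 in the D7E cultures. In the low lines it was 1.47, 1.47 and 1.36 in WTD and 1.04, 0.83 and 0.87 in D7F. The lowest high culture (1.45, D7E) lay just under the highest low culture (1.47, WTD), so the groups overlapped, and the IM2 cultures lay between -0.24 and -0.13. As a linear ratio to the reference, the line means were 4.57 in WTA, 3.05 in D7E, 2.70 in WTD and 1.89 in D7F. Whether the probe reads the cell's own transcript, the introduced one or both is not stated.

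**Figure D1:**
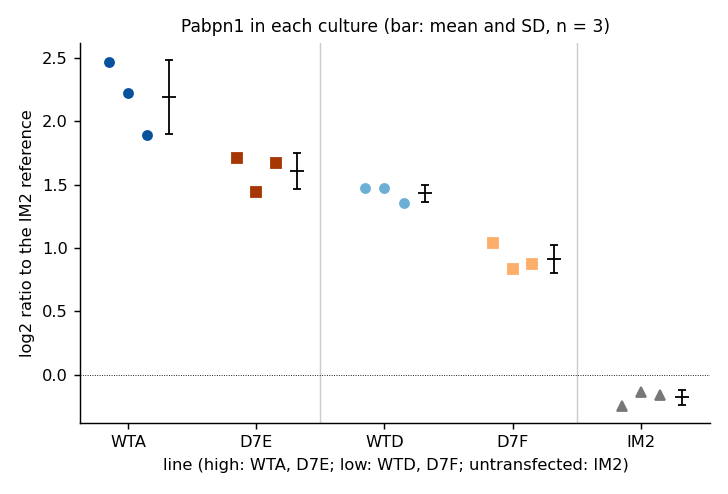
Pabpn1 log2 ratio to the IM2 reference (y axis) in each culture of the 5 lines (x axis); points are cultures and bars give the mean and SD (n = 3). The lines fall in the order WTA, D7E, WTD, D7F and IM2, and the lowest D7E culture (1.45) lies under the highest WTD culture (1.47).

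The high-minus-low difference of Pabpn1 was 0.73 (SE 0.10, 1.65-fold, adjusted p = 0.00575; limma with Benjamini-Hochberg adjustment over both array parts). It was 0.76 between WTA and WTD (SE 0.14, adjusted p = 0.0159) and 0.69 between D7E and D7F (SE 0.14), where it missed the threshold of 0.05 (adjusted p = 0.0971). Across genotypes, D7E exceeded WTD by only 0.18. The difference fell to 0.06 (adjusted p = 0.968) when arrays were scaled to a common spread, with -0.28 for WTA minus WTD and 0.40 for D7E minus D7F. All p-values rest on how cultures of 1 line vary, and the labels do not say whether cultures were grown independently. With lines as the units, 2 against 2 allows 6 splits and no two-sided exact permutation p below 0.333.

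Few probes differed between high and low lines across both genotypes. Of 9703 probes tested, 37 were called, which is 0.381%, with 20 higher (0.206%) and 17 lower (0.175%) in the high lines, and 768 had an unadjusted p under 0.05. Part II held 8 of the calls, 6 higher and 2 lower, and with its ratios turned the split would be 16 higher and 21 lower. The 6 were Loxl2, Gpx7, Dynlt3, Hif1an, Abhd5 and Fbxo5, and the 2 were Mef2d and Tmem150a. Directions given below for these genes would turn with the ratios of that part. With each array centred on its median the split was 23 higher and 9 lower, and with arrays also scaled 22 and 10. By gene, 34 of 8107 were called (0.419%), and 3 called probes have no single mouse symbol. The wild-type pair alone gave 172 calls (1.77%; 83 higher and 89 lower in WTA) and the mutant pair alone 22 (0.227%; 12 higher and 10 lower in D7E). After centring these splits were 136 and 64, and 13 and 6. The test of whether the pairs themselves differ, the interaction of genotype and level, called 230 probes (2.37%). In each of the 23 other settings in which both contrasts were fitted, the interaction again called more probes than high against low.

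The wild-type and mutant pairs did not move alike. These contrasts share no culture, although every array carries the common reference. Over all probes tested the differences WTA minus WTD and D7E minus D7F correlated with r = -0.14, and 44.7% of probes had the same sign in both. Probes are not independent replicates in this correlation. It was -0.10 on part I and -0.18 on part II, and it stayed below 0 in all 23 of those settings. Of the 37 probes called, 32 had the same sign in both pairs, 32 were also called in the wild-type pair, 6 in the mutant pair and 5 in both. The high-minus-low difference is the mean of both pair differences, so calling on it favours probes with the same sign in both. The difference was smaller in the mutant pair for 30 of the 37, with a median size of 0.43 against 1.12 in the wild-type pair. Over all probes tested the median size was 0.17 in the mutant pair and 0.21 in the wild-type pair.

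**Figure D2:**
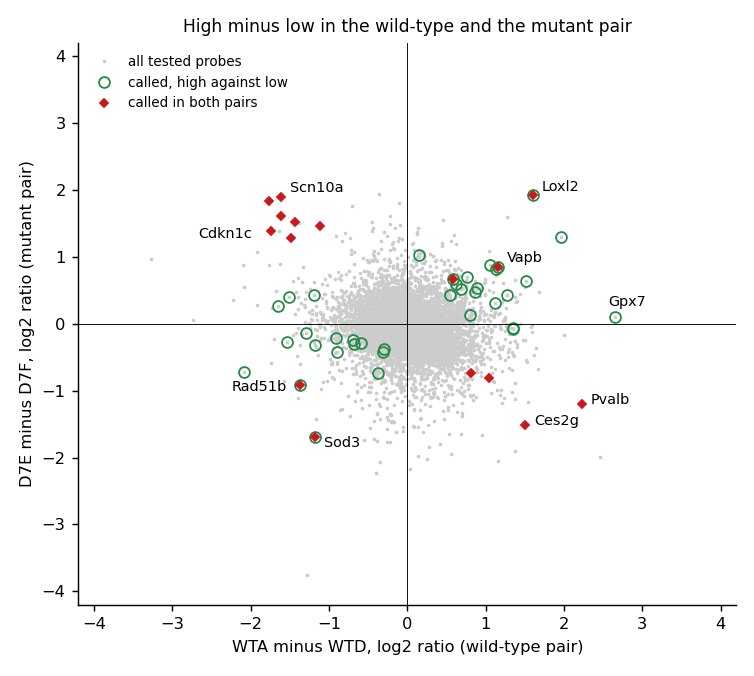
High-minus-low difference in log2 ratio in the mutant pair (D7E minus D7F, y axis) against that in the wild-type pair (WTA minus WTD, x axis) for the 9703 tested probes; green circles are the 37 called in high against low and red diamonds the 16 called in both pairs. Of the 16, 5 lie where both pairs have the same sign and 11 where the signs are opposite.

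Loxl2, Vapb, Ywhab and Rad51b were called in each pair separately in the same direction, as was Sod3. The first 4 alone were called when the line was treated as a random block, a fit that estimates how far cultures of a line are related. The estimated correlation between cultures of a line was only 0.05 on part I and 0.03 on part II. That fit therefore treated cultures as nearly independent and did not test lines as units. Together with Rhoa and Xrcc5 these 4 also kept their call in at least 23 of 25 other settings, including all 12 that leave out a culture. RefSeq promoter windows (GRCm38.p6, from 250 bases before to 50 after the annotated start) were at hand for Rad51b, Rhoa, Vapb and Xrcc5 and are printed to show the sequence in front of 4 transcripts that kept their call in most settings, of which Rad51b fell and the others rose. Capitals mark 4 short motifs, each searched on both strands. CACGTG is the E-box bound by Usf2 and related factors. The core of hypoxia-response elements is written ACGTG and lies within the E-box letters, so every E-box counts for both. TATAAA is the core promoter element of that name, and CCAAT is the element bound by nuclear factor Y. For Rad51b and Rhoa the first of 2 windows is shown.
Vapb, chr2:173737321-173737620, plus strand: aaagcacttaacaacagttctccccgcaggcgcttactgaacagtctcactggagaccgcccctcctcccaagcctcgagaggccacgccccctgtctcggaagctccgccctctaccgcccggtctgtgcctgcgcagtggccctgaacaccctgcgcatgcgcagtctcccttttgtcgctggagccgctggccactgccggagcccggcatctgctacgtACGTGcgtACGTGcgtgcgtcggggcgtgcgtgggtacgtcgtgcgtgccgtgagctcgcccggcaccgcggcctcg
Xrcc5, chr1:72307171-72307470, plus strand: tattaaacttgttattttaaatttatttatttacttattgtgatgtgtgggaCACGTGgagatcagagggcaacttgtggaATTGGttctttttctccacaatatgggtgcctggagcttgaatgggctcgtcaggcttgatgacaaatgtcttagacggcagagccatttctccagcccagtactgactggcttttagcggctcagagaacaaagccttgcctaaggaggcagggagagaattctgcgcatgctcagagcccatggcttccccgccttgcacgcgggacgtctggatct
Rhoa, chr9:108305910-108306209, plus strand: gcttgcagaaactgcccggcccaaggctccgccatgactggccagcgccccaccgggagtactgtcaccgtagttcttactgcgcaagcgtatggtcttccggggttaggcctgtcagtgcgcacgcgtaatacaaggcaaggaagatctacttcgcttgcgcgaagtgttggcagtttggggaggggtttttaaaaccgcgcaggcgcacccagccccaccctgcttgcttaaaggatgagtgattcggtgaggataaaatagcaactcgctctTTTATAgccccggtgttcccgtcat
Rad51b, chr12:79297032-79297331, plus strand: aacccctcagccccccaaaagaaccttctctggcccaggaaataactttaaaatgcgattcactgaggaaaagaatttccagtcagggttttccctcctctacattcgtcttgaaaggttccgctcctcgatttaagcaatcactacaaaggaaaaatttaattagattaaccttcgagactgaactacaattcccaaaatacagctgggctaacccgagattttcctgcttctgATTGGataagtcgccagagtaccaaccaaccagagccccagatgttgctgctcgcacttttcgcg

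The 4 windows differed in composition. The Vapb window is 67.7% G and C, that of Rhoa 56.7%, that of Xrcc5 48% and that of Rad51b 45%, with a median of 52.7% over 32851 RefSeq windows. None of the motifs is present in all 4 windows. An E-box is present in the Xrcc5 window alone, and ACGTG in those of Vapb and Xrcc5. The letters TATAAA are present in the Rhoa window only on the minus strand, as TTTATA, and after the annotated start. CCAAT, read on the minus strand as ATTGG, is present in the windows of Xrcc5 and Rad51b. Over all windows the shares are 7.15% for CACGTG, 19.6% for ACGTG, 13.6% for TATAAA and 37.4% for CCAAT. Of the 34 genes called, 27 had a window, and the first window held CACGTG in 3, ACGTG in 6, TATAAA in 2 and CCAAT in 8. These counts describe letters in a window and not sites that a factor binds.

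Loxl2, a lysyl oxidase that cross-links collagen, had the largest difference among called genes measured in all 12 cultures, a rise as read here. Its log2 ratio was -0.94, -0.07 and -0.26 in WTA and 0.30, 0.12 and 0.22 in D7E, against -1.97, -2.08 and -2.03 in WTD and -1.01, -1.71 and -2.40 in D7F. High and low cultures did not overlap, with the closest pair at -0.94 and -1.01. The difference was 1.76 (SE 0.20, 3.40-fold, adjusted p = 0.00147), made up of 1.60 in the wild-type pair (adjusted p = 0.0103) and 1.92 in the mutant pair (adjusted p = 0.0103). Loxl2 is a part II gene, so its difference would be a fall of the same size with the ratios of that part turned. Its level did not follow the order of Pabpn1, being highest in D7E.

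Vapb, a membrane protein of the endoplasmic reticulum that tethers it to other organelles and is mutated in a form of motor neuron disease, rose by 1.00. Its log2 ratio was 1.48, 1.22 and 1.52 in WTA and 1.32, 1.05 and 0.95 in D7E, against 0.37, 0.07 and 0.33 in WTD and 0.20, 0.31 and 0.29 in D7F. All 6 high cultures lay at or above 0.95 and all 6 low cultures at or below 0.37. The difference (SE 0.10, 1.99-fold) had an adjusted p of 0.00147, and passed in the wild-type pair (1.15, adjusted p = 0.00112) and the mutant pair (0.84, adjusted p = 0.0355). Vapb missed the threshold on the arrays of either dye alone.

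Ywhab, an adaptor protein that binds phosphorylated partners, rose by a similar amount in both pairs. Its log2 ratio was 0.91, 1.01 and 0.80 in WTA and 0.87, 0.74 and 0.83 in D7E, against 0.40, 0.23 and 0.33 in WTD and 0.18, 0.09 and 0.18 in D7F. The difference was 0.62 (SE 0.07, 1.54-fold, adjusted p = 0.00147), with 0.59 in the wild-type pair (adjusted p = 0.00908) and 0.66 in the mutant pair (adjusted p = 0.0150). The line means stood in the order of Pabpn1, and the call was lost with arrays scaled to a common spread and on Cy5 arrays alone.

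Rad51b, which acts in homologous recombination, showed the largest fall among called part I genes measured in all 12 cultures. Its log2 ratio was -0.82, -0.71 and -0.99 in WTA and -0.11, -0.26 and -0.37 in D7E, against 0.51, 0.58 and 0.49 in WTD and 0.69, 0.80 and 0.55 in D7F. All high cultures were below the reference and all low cultures above it. The difference was -1.15 (SE 0.11, 2.21-fold lower, adjusted p = 0.00147), with -1.37 in the wild-type pair (adjusted p = 0.00063) and -0.92 in the mutant pair (adjusted p = 0.0329). Rad51b was called in all 25 other settings.

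Sod3, the extracellular superoxide dismutase, was the fifth gene called the same way in both pairs. It was measured in 11 of the 12 cultures, with values of -2.33 to -1.29 in the 5 high cultures and -0.97 to 0.25 in the 6 low ones. The difference was -1.44 (SE 0.18, adjusted p = 0.00575), with -1.18 in the wild-type pair and -1.69 in the mutant pair (adjusted p = 0.0370 and 0.0355). Its call was lost with values at the limits kept, with arrays scaled, on Cy3 arrays alone and with line as a random block (highest adjusted p over its settings 0.330).

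The other rises without overlap between high and low cultures were larger in the wild-type pair for each gene, and none was called in the mutant pair alone. Actr1a, the actin-related subunit of dynactin, ranged from 0.51 to 2.02 (median 1.21) in the high cultures and from 0.11 to 0.34 (median 0.21) in the low ones. It differed by 1.08 (SE 0.16, adjusted p = 0.0122), with 1.52 in the wild-type and 0.64 in the mutant pair. Hif1an, the asparagine hydroxylase that restrains hypoxia-inducible factor, ranged from 1.01 to 1.66 (median 1.32) in high and from -0.28 to 0.66 (median 0.42) in low cultures, a difference of 0.97 (SE 0.16, adjusted p = 0.0208). Its call was lost without WTA culture 1, WTD culture 1 or 2, or D7E culture 1 or 3 (highest adjusted p over its settings 0.571). Pdcd4, an inhibitor of translation initiation, ranged from 0.90 to 1.90 in high and from 0.15 to 0.85 in low cultures, and differed by 0.85 (SE 0.15, adjusted p = 0.0308). Leaving out any of 10 cultures ended the Pdcd4 call, all but WTA culture 2 and D7F culture 2.

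Xrcc5, the Ku80 subunit of DNA end joining, ranged from -0.03 to 0.37 in high cultures and from -0.93 to -0.09 in low ones. The WTD cultures (-0.82, -0.93 and -0.76) stood apart from all others, and the difference was 0.67 (SE 0.07, adjusted p = 0.00147), with 0.86 in the wild-type and 0.47 in the mutant pair. Abhd5, the co-activator of triglyceride lipolysis, ranged from 0.06 to 0.41 in high and from -0.82 to -0.10 in low cultures. Its difference of 0.71 (SE 0.09, adjusted p = 0.00232) was 1.12 in the wild-type pair and 0.30 in the mutant pair, and the pairs themselves differed (adjusted p = 0.0343). Rhoa, the small GTPase of the actin cytoskeleton, was 0.58, 0.59 and 0.65 in WTA and 0.30, 0.31 and 0.27 in D7E, against -0.36 to 0.09 in the low cultures. It differed by 0.60 (SE 0.08, adjusted p = 0.00523), with line means in the order of Pabpn1.

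Falls without overlap, after Rad51b, were small, and all but that of Usf2 were lost under most refits. Tmem176b, a membrane protein, ranged from -1.78 to -0.89 (median -1.15) in high and from -0.82 to -0.54 (median -0.64) in low cultures, a difference of -0.56 (SE 0.10, adjusted p = 0.0308). Usf2, a factor that binds E-boxes, ranged from -0.53 to -0.05 in high and from -0.01 to 0.34 in low cultures, and differed by -0.47 (SE 0.07, adjusted p = 0.0173). Trim25, a ubiquitin ligase of the antiviral response, differed by -0.44 (adjusted p = 0.0438). Rpl23, a protein of the large ribosomal subunit, differed by -0.37 (adjusted p = 0.0446) on part I, while its part II probe differed by -0.05 (adjusted p = 0.969). Mocs2, a subunit of molybdopterin synthase, differed by -0.33 (adjusted p = 0.0293). Usf2 was called in 14 of 25 other settings, Tmem176b and Mocs2 in 4 each, and Trim25 and Rpl23 in 2 each. Of the 12 settings that leave out a culture, Tmem176b and Mocs2 kept the call in 2, Trim25 and Rpl23 in 1 and Usf2 in 8. No further gene passed the rule for falls.

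**Figure D3:**
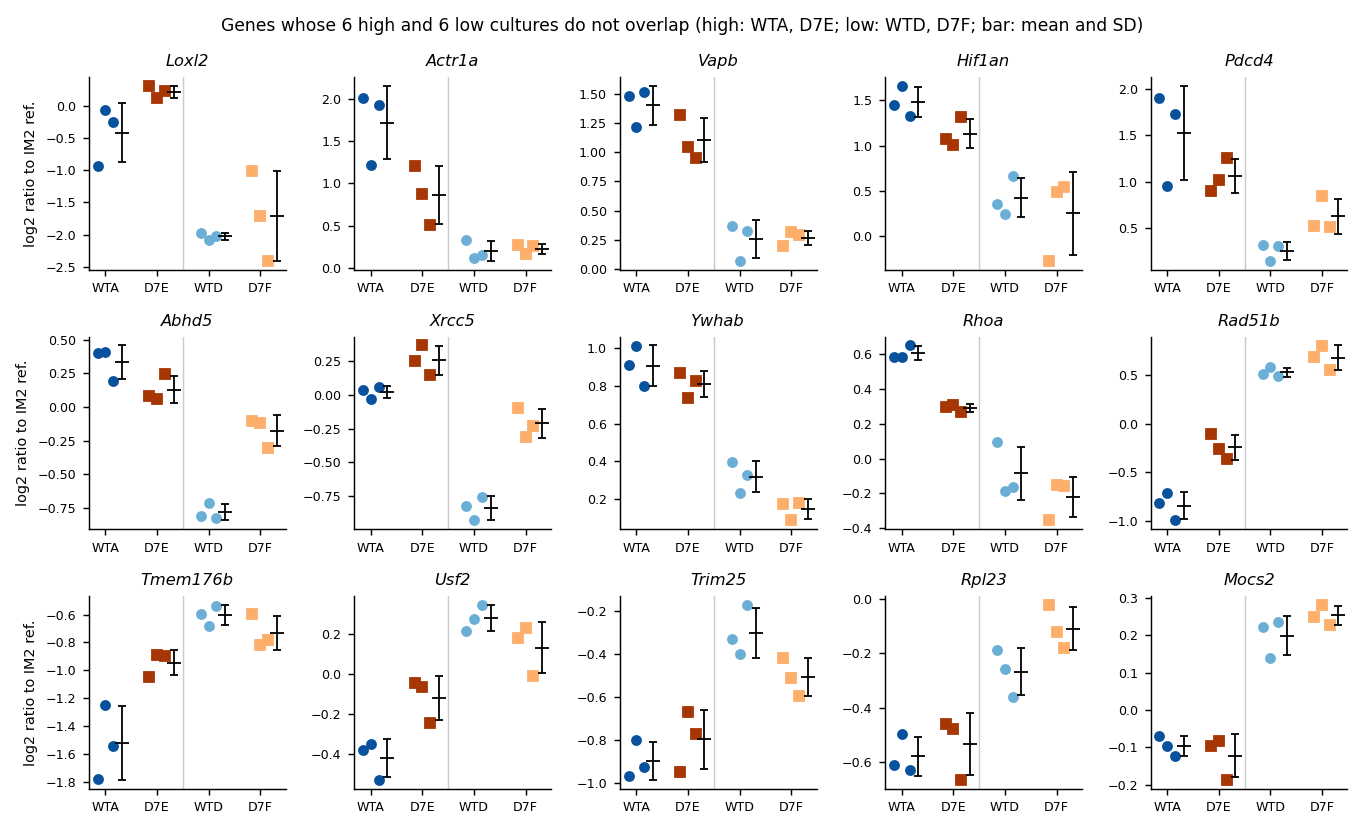
Log2 ratio to the IM2 reference (y axis) by line (x axis) for the 15 named genes called in high against low whose 6 high and 6 low cultures did not overlap; points are cultures, bars the mean and SD (n = 3). Loxl2, Vapb, Ywhab and Rad51b were called in each pair separately. Abhd5 and Xrcc5 were called in the wild-type pair and not in the mutant pair, and their WTD cultures stand lowest.

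Absence of overlap was itself uncommon. Of the 6585 probes measured in all 12 cultures, 69 had no overlap between the 6 high and the 6 low cultures (1.05%), 35 with the high lines above and 34 below. Of the 37 called probes, 16 were among them.

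For other called genes the difference came from a single pair. Gpx7, a peroxidase of the endoplasmic reticulum, was -2.74, -3.92 and -3.47 in WTD and between -0.93 and -0.17 in all 9 other transfected cultures. Its difference of 1.38 (SE 0.16, adjusted p = 0.00147) was 2.65 in the wild-type pair and 0.11 in the mutant pair. Cmya5, a muscle protein of the sarcomere region, and Fbxo5, an inhibitor of the anaphase-promoting complex, differed by 0.64 and 0.63 (adjusted p = 0.0171 and 0.0208), also through low WTD cultures. In both, the mutant pair had the opposite sign (-0.06 and -0.08). Pacsin1, which shapes membranes in endocytosis, and Rag2, the recombination-activating gene of lymphocytes, were low in WTA alone. Pacsin1 was -0.57 to -0.38 in WTA and 0.46 to 1.09 in the 9 other cultures, and Rag2 -1.15 to -0.85 against -0.20 to 0.37. Rbms1, an RNA-binding protein, was the reverse case, with 1.03 in the mutant pair (adjusted p = 0.00854) and 0.15 in the wild-type pair. Of the 12 fits that each leave out a culture, Gpx7 and Pacsin1 kept their call in 12, Cmya5 in 10, Fbxo5 in 6, Rbms1 in 5 and Rag2 in 4.

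The remaining named calls, given here after their values were seen, were 4 lower and 5 higher. Lower in the high lines were Wnt10a, a Wnt ligand (-1.40), Dpep1, a dipeptidase (-0.91), Pcbd1, of tetrahydrobiopterin recycling (-0.71), and Tmem150a, a membrane protein (-0.50). Higher were Vamp3, a vesicle fusion protein (1.63), Dynlt3, a dynein light chain (0.97), Wwtr1, the Hippo pathway co-activator (0.61), Limd1, a LIM-domain scaffold (0.49), and Sacm1l, a phosphoinositide phosphatase (0.46). Their adjusted p-values ran from 0.00551 for Pcbd1 to 0.0458 for Tmem150a. Vamp3, Dynlt3 and Wnt10a were each measured in 11 of the 12 cultures. Of 12 fits that each leave out a culture, Pcbd1 kept its call in 12, Limd1 in 5, Sacm1l in 4, Dpep1 and Wwtr1 in 3 and Tmem150a in 2. Of the 10 such fits that could test them, Dynlt3 kept its call in 10, Wnt10a in 9 and Vamp3 in 4.

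Among the 16 probes called in both pairs, 11 had opposite signs, so their high-minus-low differences cancelled. Both cyclin-dependent kinase inhibitors in this group behaved so. Cdkn1c was -0.34, -0.38 and -0.18 in WTA and 1.49, 1.36 and 1.49 in WTD, but 1.02, 1.11 and 1.05 in D7E and -0.17, -0.50 and -0.30 in D7F. The high line was the lower one among wild-type lines (-1.75, adjusted p = 7.05e-05) and the higher one among mutant lines (1.38, adjusted p = 0.0017), leaving -0.18 between high and low (adjusted p = 0.729). Cdkn2c showed the reverse, with 0.81 in the wild-type pair (adjusted p = 0.00392) and -0.74 in the mutant pair (adjusted p = 0.0312).

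Pvalb, the calcium-binding protein of fast muscle fibres, was 0.56, 0.56 and 0.49 in WTA, -1.55, -1.60 and -1.92 in WTD, -0.45, -0.52 and -0.88 in D7E, and 0.47, 0.69 and 0.57 in D7F. WTA and D7F, which carry the highest and the lowest Pabpn1 ratio, thus had nearly the same Pvalb ratio. The pairs gave 2.22 (adjusted p = 5.9e-05) and -1.20 (adjusted p = 0.0103). Pfkl, a phosphofructokinase of glycolysis, had the same pattern, with 1.04 in the wild-type pair and -0.82 in the mutant pair. Ces2g, a carboxylesterase, was 2.83-fold higher in WTA than in WTD and 2.87-fold lower in D7E than in D7F. The sodium channel gene Scn10a, the potassium channel subunit gene Kcnmb4, the secreted protease inhibitor gene Spink4, Lrrn1 and Prr32 had the pattern of Cdkn1c, with -1.61 to -1.11 in the wild-type pair and 1.28 to 1.89 in the mutant pair. The last of the 11 has no single symbol and, like Ces2g and Prr32, lies on part II.

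**Figure D4:**
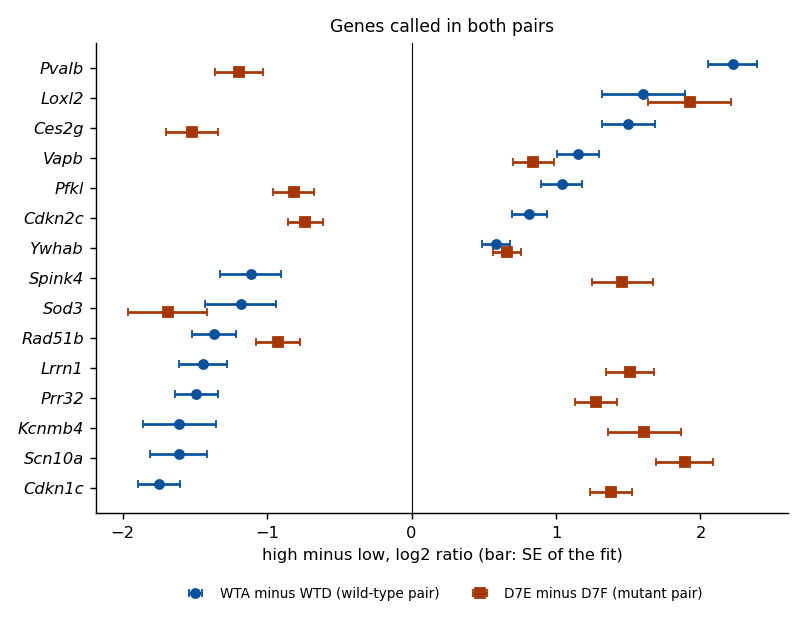
High-minus-low difference in log2 ratio (x axis) in the wild-type pair (blue) and the mutant pair (brown) for the 15 named genes called in both pairs; bars are the SE of the limma fit. The pairs lie on the same side of 0 for Loxl2, Vapb, Ywhab, Rad51b and Sod3, and on opposite sides for the 10 others.

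Gene lists are described by counts and medians, without a test of the list. List members come from both array parts, so medians and counts of signs rest on the assumed direction of part II. Over 17 lists of pathways, 6 of 606 genes tested were called (0.990%, against 0.419% of all genes), 1 of them Pabpn1 itself. At an unadjusted p under 0.05 stood 643 of the 8107 genes, and 3909 had a positive difference. Of 24 genes of polyadenylation and poly(A) binding, 1 was called higher, Pabpn1, and none lower, with a median difference of 0.01 beside -0.01 over all genes. Pabpc1, the cytoplasmic poly(A)-binding protein, differed by -0.16 (adjusted p = 0.662). None of the 17 tested genes of the nuclear exosome and RNA export was called, nor any of 48 splicing factors, where the smallest p-values belonged to Srsf5 (0.37, adjusted p = 0.283) and Snrpn (0.45, adjusted p = 0.272). One of 58 ribosomal proteins was called, Rpl23, which was lower.

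Among lists tied to muscle, 1 of 40 sarcomere genes was called higher (Cmya5), 1 of 30 myogenic regulators lower (Mef2d) and none of 33 genes of calcium handling and energy metabolism. Mef2d, a transcription factor of muscle differentiation, ranged from -0.69 to 0.13 in high and from -0.09 to 0.49 in low cultures, which overlapped, and differed by -0.66 (SE 0.13, adjusted p = 0.0388). Its call was kept in 5 of the 12 settings that leave out a culture. The wild-type pair alone had 4 calls higher and 1 lower in the sarcomere list, 1 and 2 among the regulators, and 4 and 0 in calcium handling and energy metabolism. Over all 8107 genes that pair had 74 calls higher and 77 lower. Mef2d was 1 of the 2 lower regulators (-0.90, adjusted p = 0.0190). Among the higher calls of these lists were Tmod4 (1.53), Myot (0.61) and Myoz1 (0.60) of the sarcomere, the regulator Myf6 (0.84) and the glucose transporter gene Slc2a4 (0.78). In the mutant pair these genes differed by -0.57, -0.04, -0.23, -0.55 and -0.56, none of them called. Cd36, a fatty acid transporter of the calcium and energy list, had the same sign in both pairs, with 0.69 in the wild-type pair (adjusted p = 0.0298) and 0.32 in the mutant pair (adjusted p = 0.505). Its 6 high cultures (0.95 to 1.52) lay just above its 6 low ones (0.54 to 0.94), and the high-minus-low difference was 0.50 (adjusted p = 0.0683). At an unadjusted p under 0.05 were 12 of the 40 sarcomere genes, and 27 of the 33 calcium and energy genes had a positive difference. The median over the sarcomere list was 0.27 in the wild-type pair and -0.04 in the mutant pair, and the high-minus-low median of 0.15 became -0.01 with arrays scaled.

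In the extracellular matrix list 1 of 57 genes was called, Loxl2, and the median difference was -0.16, which turned to 0.09 with arrays scaled. Of its 57 genes, 17 had an unadjusted p under 0.05 and 15 a positive difference. Timp1, an inhibitor of matrix proteases, and Ccn2, a matricellular growth factor, were called lower in the wild-type pair alone (-1.09 and -1.30), with 0.38 and 0.47 in the mutant pair. Of 32 interferon and antigen presentation genes, 1 was called lower and 5 had a positive difference. The called gene was Isg15, the ubiquitin-like interferon product, with a difference of -0.75 (SE 0.10, adjusted p = 0.00575). Isg15 was -1.99 to -1.67 in WTA, -1.81 to -1.48 in D7E, -1.48 to -1.06 in D7F and -0.70 to -0.55 in WTD, so that 1 D7F culture fell within the range of D7E. Its difference dropped by more than 1.5 times, to -0.20, with arrays scaled.

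None of 30 genes of hypoxia and glycolysis, 16 of cholesterol synthesis, 31 of the endoplasmic reticulum stress response, 39 chaperones, 37 proteasome subunits, 52 of oxidative phosphorylation, 39 of the cell cycle or 31 of cell cycle exit and p53 was called. With arrays scaled, 1 hypoxia and glycolysis gene and 1 gene of calcium handling and energy metabolism were called. In cholesterol synthesis the median was 0.47 in the wild-type pair and -0.11 in the mutant pair. The same held for hypoxia and glycolysis (0.27 and -0.22), where Bnip3, a mitophagy receptor, was 1.52 in the wild-type pair (adjusted p = 0.00179) and -0.55 in the mutant pair (adjusted p = 0.404). Atf5, a stress-response transcription factor, was -0.76 in the wild-type pair (adjusted p = 0.00392) and -0.01 in the mutant pair.

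Cell type markers were compared between the groups by the same test. The labels name no cell type, and ratios to a reference cannot show whether a marker is present at all. Over 8 lists, 43 marker genes could be tested, and 0 were called in high against low by limma, with 3 at an unadjusted p under 0.05. Of all 8107 genes, 34 were called (0.419%) and 643 had an unadjusted p under 0.05. So few markers cannot show whether the groups differ in cell type. Of 11 muscle cell markers, 8 had a positive difference, with a median of 0.05 that became -0.07 with arrays scaled. Acta1, skeletal muscle actin, differed by 0.25 (adjusted p = 0.545) and Tnnt2, a troponin of immature muscle, by 0.25 (adjusted p = 0.695). Of 9 fibroblast markers, 4 had a positive high-minus-low difference, with a median of -0.04. The fibroblast marker Dpt was called in the wild-type pair alone (1.40, adjusted p = 0.00909), with -0.31 in the mutant pair. In the wild-type pair alone, 1 of 6 smooth muscle markers was called lower.

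When the Pabpn1 ratio of each culture replaced the label, no probe was called. The matching fit with the label, with level and genotype as terms over the same 12 cultures, called 12 probes. The 37 calls above came from a fit with a term for each line and with the IM2 cultures. In a fit over the 12 cultures with genotype as a term, 0 of 12037 probes had a slope on Pabpn1 past the threshold (0% called by limma), with a smallest adjusted p of 0.124, while 918 had an unadjusted p under 0.05 (7.63%). Without the genotype term 0 were called and 1264 had an unadjusted p under 0.05. Within lines, where only differences between cultures of a line count, 1 was called and 1725 had an unadjusted p under 0.05 (14.3%). The share was 17.8% on part I, whose probes share arrays with Pabpn1, and 11.8% on part II. The single gene called within lines was Add3, an adducin of the membrane skeleton. It lies on part I and had a slope of 8.12 (SE 0.51) per unit of the Pabpn1 log2 ratio. The slope called 15 of 6809 probes when restricted to probes measured in all 12 cultures, and 2 without WTA culture 1, 2 or 3 in turn.

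The smallest p-values for a slope belonged to Ywhab, Tac1, Zmat2, Ccn5, Cs, Vapb, Rad51b and Wwtr1, several of them described above. For each unit of the Pabpn1 log2 ratio, Ywhab rose by 0.77 (SE 0.11, adjusted p = 0.124), Vapb by 1.18 (SE 0.20), Wwtr1 by 0.80 (SE 0.14) and Cs, citrate synthase of the Krebs cycle, by 0.71 (SE 0.12). Rad51b had a slope of -1.34 (SE 0.22). The neuropeptide gene Tac1, the zinc finger gene Zmat2 and the matricellular gene Ccn5 had slopes of -1.62, -1.31 and -1.18. None of these passed the threshold. Cs and Zmat2 are part II genes, so their slopes would change sign with the ratios of that part turned. Within lines the slope was 0.25 for Ywhab (SE 0.23), 0.58 for Wwtr1 (SE 0.39), 0.56 for Cs (SE 0.32) and 0.27 for Rad51b (SE 0.28), so for Rad51b the sign turned. Loxl2 had a slope of 2.07 with genotype in the fit and -0.17 within lines.

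The genes with the highest correlation to Pabpn1 over the 12 cultures, given as a description, were Wwtr1 (r = 0.93), Cs (0.93), Aif1l, an actin-binding protein (0.89), and the non-coding RNA genes Snhg10 (0.89) and Oip5os1 (0.88). The lowest were those of Mpg, a DNA glycosylase (-0.93), Tmem209 (-0.90), Ank, a pyrophosphate transporter (-0.90), Klhdc9 (-0.90) and Hbegf, a growth factor of the epidermal growth factor family (-0.89). Cs, Aif1l, Snhg10, Oip5os1, Tmem209 and Klhdc9 are part II genes, and their r would change sign with the ratios of that part turned. Cultures of a line share that line, and probes on part I share their arrays with Pabpn1, so the 12 points are not independent. Without WTA cultures 1 and 2, the farthest from the median Pabpn1 ratio, r was 0.95 for Wwtr1, 0.88 for Cs and -0.87 for Mpg. Wwtr1 was 1.08, 1.46 and 0.89 in WTA, 0.68, 0.49 and 0.84 in D7E, 0.44, 0.51 and 0.61 in WTD, and 0.31, 0.02 and -0.10 in D7F. The D7E and WTD cultures overlapped in Wwtr1, as they did in Pabpn1. For Cs the 6 high cultures (0.57 to 1.01) lay above the 6 low ones (-0.05 to 0.41), with a difference of 0.53 that just missed the threshold (SE 0.11, adjusted p = 0.0528).

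**Figure D5:**
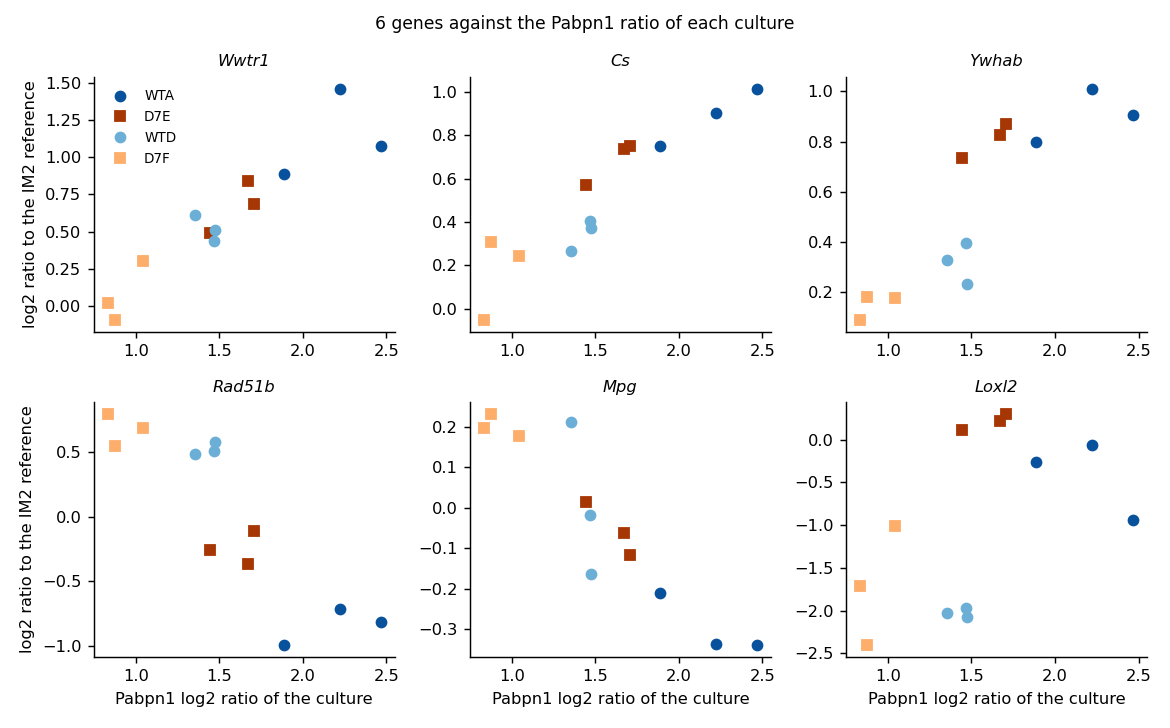
Log2 ratio to the IM2 reference of 6 genes (y axes) against the Pabpn1 log2 ratio of the same culture (x axis) in the 12 transfected cultures, coloured by line. Wwtr1 and Cs rise and Mpg falls along the axis, whereas Loxl2 separates D7E from WTD although their Pabpn1 ratios nearly coincide.

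Of the 24 possible orders of 4 line means, 2 match the order of Pabpn1 or its reverse. The means stood in the order of Pabpn1 (WTA, D7E, WTD, D7F) for 389 of 9703 probes and in the reverse order for 562, together 9.80%.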

How the data were processed

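Total RNA of 5 mouse lines, 3 cultures each, was hybridised to 60 spotted 2-colour arrays, 30 per array part, per the labels. The deposited values are log ratios of unstated base, taken as log10 because they stop at -2 and 2 (a ratio of 100 in base 10, of 4 in base 2). They were multiplied by 3.3219 to give log2 ratios. How the authors scanned and normalised the arrays is not given in the sources used here. Titles gave groups, cultures and dyes. For WTA culture 3 on part I the channel sources, which disagree with the titles on the dye, were used, and 1 description of D7F culture 1 reads high where its title and its line's other arrays do not.

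Values at the limits were dropped, the 2 dye orientations of a culture were averaged where both were measured, and probes needed 2 cultures in every line. Probes were named through GEO's platform tables and RefSeq. Each part was fitted with limma 3.58.1 (R 4.3.3; lmFit, eBayes) with a term for each of 5 lines, and p-values were adjusted by Benjamini-Hochberg over both parts, with a threshold of 0.05. The slope fit used the 12 transfected cultures. The number of arrays limits the precision. The members, lists and tests were chosen with earlier results of these data known. Named were Pabpn1; up to 12 rises and 12 falls called with no overlap over all 12 cultures and 1 sign in both pairs; up to 6 called genes of opposite signs; called or leading members of each list; and the 5 highest and 5 lowest r to Pabpn1. In simulated data of the high-low test with 9703 probes, 38 of 50 probes shifted by 1 on the log2 scale and 11 of 50 shifted by 0.5 were called. Of 9503 unshifted probes, 11 were called. The simulated lines of a level shared 1 mean, unlike the real lines, so these shares do not give the power of the real comparison. Alternatives changed the limit values, scaling, dyes, cultures, minimum measured, arrays of poor quality, replicate block and model.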

Additional observations from a re-analysis of the deposited data

Results flagged for a closer look

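For the genes below, the high-minus-low difference itself differed between the wild-type and the mutant pair. Each value is WTA minus WTD, less D7E minus D7F, on the log2 scale, and passed limma's test of the interaction of genotype and level after Benjamini-Hochberg adjustment. Lines hold 3 cultures, so single cultures were not screened as outliers within a line.

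Among genes called in both pairs with opposite signs, the value was -3.50 for Scn10a, -3.22 for Kcnmb4, -3.13 for Cdkn1c, -2.95 for Lrrn1, -2.77 for Prr32 and -2.57 for Spink4. It was 3.42 for Pvalb, 3.02 for Ces2g, 1.85 for Pfkl and 1.55 for Cdkn2c. Among genes called in high against low, it was -1.91 for Pacsin1, -1.62 for Rag2, -1.16 for Pcbd1, -0.88 for Rbms1 and -0.86 for Isg15. It was 2.55 for Gpx7, 1.43 for Fbxo5, 1.42 for Cmya5 and 0.81 for Abhd5. Of the list genes named, Bnip3 had 2.06, Dpt 1.71 and Atf5 -0.75. The highest adjusted p among these genes was 0.0474, that of Isg15.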

How the results depend on the processing

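Of 34 named genes called in high against low, none reversed in any setting, and Rad51b kept its call in all 25. Over these genes and the other settings, 366 of 837 values lost the call and 471 kept it. The settings reuse the same cultures, so they are not independent checks. The 37 calls became 19 with limit values kept, 22 without IM2 and 61 when every culture had to be measured. They became 22 when the filter required only 1 measured culture per line. Arrays of 1 dye alone gave 7 (Cy5) and 9 (Cy3), and 1 orientation allowed gave 16. With line as a random block 4 were called, and with additive level and genotype 12. Leaving out a culture gave 20 to 76, the highest without WTA culture 2, where 36 of the 37 were shared; apart from WTA culture 3 (44) and D7F culture 3 (29), each other omission gave 20 to 24. Pabpn1 had 0.77 (adjusted p = 0.162) on Cy5 arrays alone, 0.73 (adjusted p = 0.478) with the random block and 0.058 (adjusted p = 0.968) with arrays scaled.

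The same settings gave the wild-type pair 79 calls with limit values kept and 300 when every culture had to be measured. That pair had 113 with only 1 measured culture required per line, 41 on Cy5, 73 on Cy3 and 79 with 1 orientation. Without single cultures it had 84 to 258 (94, 109, 87 and 84 without WTA 1, WTD 1, WTD 2 and WTD 3). The mutant pair had 42 when every culture had to be measured, 2 on Cy5, 3 on Cy3, and 7 to 32 without single cultures (7 without D7F culture 2). The interaction had 79 with limit values kept, 134 without IM2, 436, 116, 37, 49 and 66 in the order above, 106 without poor arrays, and 91 to 284 without single cultures. The slope on Pabpn1 called 15 when every culture had to be measured, 1 without poor arrays, 1 within lines and 0 to 2 without single cultures. The cause of these changes was not tested. Some settings also changed how many probes were tested.

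The values did not settle whether culture numbers pair the samples. Deviations of same-numbered cultures from their line means had correlations between -0.24 and 0.43 on part I (median 0.01). On part II these lay between -0.29 and 0.53 (median 0.11). Differently numbered cultures of different lines had medians of -0.05 on part I and -0.08 on part II. On part I 6 of 12 cultures, and on part II 8 of 12, were closest to their own number. With 3 numbers to match, 1 in 3 cultures would be so on average without pairing. With the replicate block, high against low had 27 calls, the mutant pair 13, the wild-type pair 153 and the interaction 145.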
